A study of Mus musculus with 25 samples.

Results

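The coding Hox genes were followed over 25 inbred mouse strains in dorsal root ganglia, which flank the spinal cord and hold the cell bodies of sensory neurons. Members were all genes of the table whose symbol is Hoxa, Hoxb, Hoxc or Hoxd followed by a number and nothing else, with no minimum level. There were 28 such genes among the 16220 of the table, of 39 coding Hox genes in the annotation. The strains are BXD recombinant inbred lines whose parents are C57BL6/J and DBA2/J, sampled at 8 weeks of age, with 1 RNA sequencing library each. In the labels 16 strain names end in TyJ and 9 in RwwJ, and no treatment is given. The sex of the mice, the number of animals behind a library and the spinal levels of the ganglia are not stated in the sources used here.

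Hox genes encode homeodomain transcription factors and lie in 4 clusters, each an array in which the order of the genes follows the order of their expression along the body axis. Genes at the same place in different clusters form a paralog group: low-numbered groups reach far towards the head, and high-numbered groups are restricted to the trunk, the lumbar region and the tail. Cells of the trunk keep a Hox combination fixed in the embryo, so the set expressed in a tissue carries a trace of its segmental level. In the nervous system Hox proteins work with cofactors of the TALE class (Pbx, Meis and Pknox) to set the fates of motor and sensory neurons.

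Sequences before the start of Hoxa9, Hoxa10, Hoxd8 and Hoxd1 are shown because the comparisons turn on these genes: the first 2 are cluster neighbours that varied together, and Hoxa10, Hoxd8 and Hoxd1 were the most abundant members of their part of the clusters. Each line holds the 100 bases before a RefSeq start on GRCm38.p6, 5′ to 3′ on the strand of the gene, with every CpG in capitals. Hoxa10 has 2 annotated starts, which the gene counts do not separate.
Hoxa9, chr6:52227371-52227470, minus strand: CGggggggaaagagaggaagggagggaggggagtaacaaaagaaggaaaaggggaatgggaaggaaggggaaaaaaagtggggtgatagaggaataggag
Hoxa10 proximal start, chr6:52234940-52235039, minus strand: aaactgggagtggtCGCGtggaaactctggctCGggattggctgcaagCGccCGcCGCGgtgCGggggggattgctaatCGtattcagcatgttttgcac
Hoxa10 distal start, chr6:52240855-52240954, minus strand: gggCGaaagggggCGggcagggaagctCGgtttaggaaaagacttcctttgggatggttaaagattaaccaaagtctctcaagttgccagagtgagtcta
Hoxd8, chr2:74704515-74704614, plus strand: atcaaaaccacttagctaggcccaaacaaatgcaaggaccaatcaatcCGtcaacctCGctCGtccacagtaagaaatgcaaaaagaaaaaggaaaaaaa
Hoxd1, chr2:74762880-74762979, plus strand: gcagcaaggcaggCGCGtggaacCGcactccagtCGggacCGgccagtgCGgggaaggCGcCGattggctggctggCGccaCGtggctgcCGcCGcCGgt

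The lines differ in CpG content: the stretch before Hoxd1 held 13 CpG, those before Hoxa10 9 and 3, that before Hoxd8 3 and that before Hoxa9 1. Over the whole RefSeq window of 300 bases, from 250 before to 50 after the start, Hoxa9 had 4 CpG, Hoxd8 6, Hoxa10 21 and 12, and Hoxd1 29. RefSeq entries of this kind were found for 15 of the 28 genes, with 16 windows. They had a median of 17 CpG, from 4 at Hoxa9 to 29, against a median of 7 over 32851 windows of all genes. The CCAAT motif, searched on both strands, was in 10 of the 16 Hox windows and in 37.4% of all windows. AGGTCA, a core of retinoic acid and other nuclear receptor sites, was in 6 of the 16 and in 16.3% of all windows. GGGCGG was in 7 of the 16 and in 35.7% of all windows, and TATAAA in 2 and in 13.6%. TAATTA, a core homeodomain motif, was in 0 of the 16 and in 5.3% of all windows, and TGATNNAT, a Pbx and Hox composite form, in 2 and in 8.8%. TAATTA and TGATNNAT can overlap each other. These matches describe letters in the windows and show no binding.

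Values are scaled counts, the read counts per gene which the authors had brought to 1 upper quartile in all libraries and rounded, and a level per length is a scaled count divided by the kilobases of exon in the annotation. An estimated 20020000 to 40150000 reads per library were assigned to the genes of the table. Markers of sensory neurons (7 genes, such as Tubb3, Prph and Isl1) were high in every library, with a summed scaled count of 173300 to 248202. Markers of other tissues differed widely: the summed spinal cord markers ran from 349 in BXD16 to 21880 in BXD48, and 4 of those 10 genes were at 0 in some strain. The skeletal muscle markers ran from 304 in BXD68 to 39487 in BXD60, with none of the 7 at 0 in any strain. The libraries BXD21, BXD36 and BXD40, were left out in an alternative added after the data were seen. Each strain had 1 library, so p-values measure differences against a spread in which genotype, animal, dissection and library are joined.

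Which paralog groups were expressed was read from the levels per length. Every paralog group from 1 to 10 had a member in the table. No row was found for groups 11, 12 and 13, whose genes mark the most caudal levels: Hoxa11, Hoxa13, Hoxb13, Hoxc11, Hoxc12, Hoxc13, Hoxd11, Hoxd12 and Hoxd13 were not analysed here, nor were Hoxb1 and Hoxd4. The Hoxa cluster on chromosome 6 had 9 of its 11 coding genes in the table, the Hoxb cluster on chromosome 11 had 8 of 10, the Hoxc cluster on chromosome 15 had 6 of 9 and the Hoxd cluster on chromosome 2 had 5 of 9. All 28 passed the filter of a mean scaled count of at least 10 that was used for testing.

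Summed over members, the level per kilobase rose with the group number from group 2 to group 9 and was lower in group 10. The sums were 320.5 for group 1, 58.9 for group 2, 88.3 for group 3, 150.8 for group 4, 255.3 for group 5, 311.3 for group 6, 404.4 for group 7, 437.4 for group 8, 559.4 for group 9 and 277.2 for group 10. The 13 genes of groups 1 to 5 held 30.5% of the Hox signal per length, the 12 genes of groups 6 to 9 held 59.8% and the 3 genes of group 10 held 9.7%. Among clusters the shares were 25.3% for Hoxa, 30.8% for Hoxb, 16.6% for Hoxc and 27.4% for Hoxd. The sums of the groups rest on unequal numbers of genes: 2 in groups 1, 2 and 7, 4 in group 9 and 3 in each other group. The rise of the sums is therefore not at every step a rise of the level per gene. Groups 2 and 7, with 2 genes each, had sums of 58.9 and 404.4, so the level per gene did rise between them, but not from group 7 to group 9. The 2 genes of group 7, at 218.2 and 186.2 per kilobase, were above all 4 of group 9, the highest at 177.8.

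**Figure D1:**
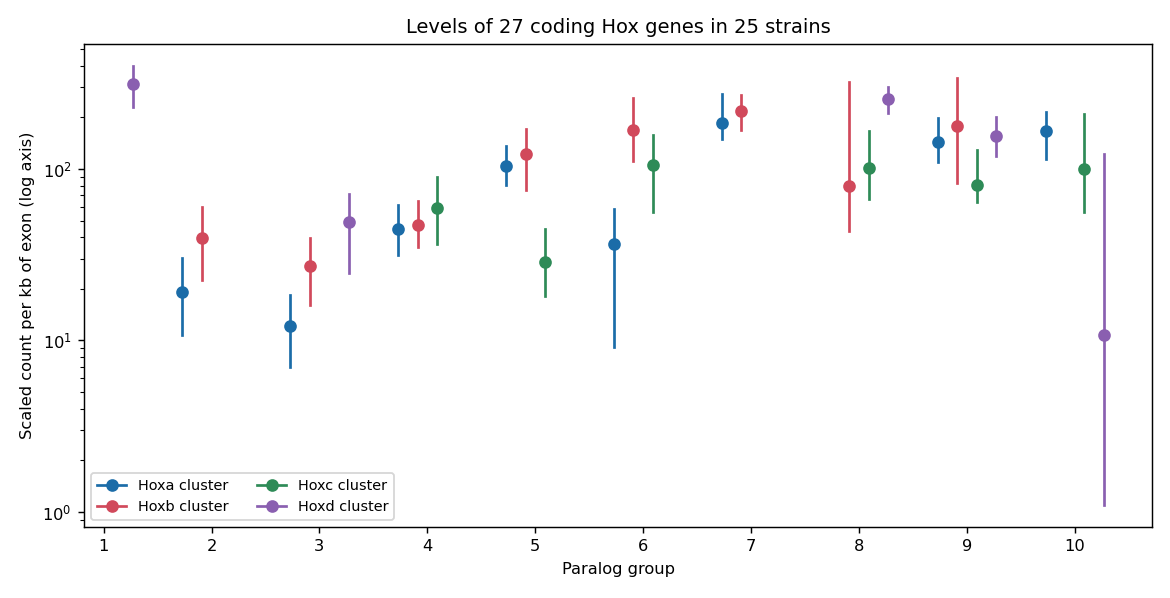
Scaled count per kilobase of exon on a log axis for 27 coding Hox genes, by paralog group and coloured by cluster. Points are means over 25 strains and lines run from the lowest to the highest strain. Hoxd1 stands highest, at 311.4, and Hoxd10 has the longest line because of BXD48.

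Group 1 was the exception to the rise of the sums. Hoxd1, known in the mouse for its expression in developing pain-sensing neurons, had the highest level of all 28 members, 311.4 ± 37.1 per kilobase (SD, n = 25), with scaled counts from 426 in BXD5 through a median of 585 to 742 in BXD36.

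Among the trunk genes, Hoxd8 was highest at 256.5 ± 26.0 per kilobase (SD, n = 25), with scaled counts of 581 in BXD55, a median of 703 and 829 in BXD48. It was also the member that varied least between strains, its log2 values having an SD of 0.147. Hoxb7 followed at 218.2 ± 27.9, Hoxa7 at 186.2 ± 27.2, Hoxb9 at 177.8 ± 59.1 and Hoxb6 at 169.4 ± 36.6 per kilobase (SD, n = 25). Each of these 4 overlapped the next in its range over strains. Hoxa9 was at 144.1 ± 22.7 and Hoxd9 at 156.5 ± 24.2 per kilobase (SD, n = 25), and their ranges over strains overlapped.

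Of the lumbar group 10, Hoxa10 was at 166.8 ± 33.5 per kilobase (SD, n = 25), with scaled counts from 373 in BXD77 through a median of 525 to 703 in BXD15. Hoxc10 was at 99.7 ± 31.2 (SD, n = 25), with a median scaled count of 202. Hoxd10, a determinant of lumbar motor neurons, had a median scaled count of only 10, close to the counting limit: the counting error alone was 0.519 on the log2 scale, against 0.064 for Hoxa10. Exons of Hoxc10 and Hoxc5 share 166 bases on 1 strand in the annotation, so their counts may not be fully separate.

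Counts of several genes may carry a further limit. It was read from an annotation of a later build than that of the counts, and its part in them was not tested. The library kit does not mark strand, and exons of Hoxb3os cover 52.9% of Hoxb3 and 27.3% of Hoxb2 from the opposite strand, while Hoxaas3 covers 20.4% of Hoxa7. A readthrough model on the same strand covers 53.1% of Hoxd3. Only genes whose names begin with Hox, Haglr, Hotairm1 or Gm were compared. Hoxa9, Hoxa10, Hoxd1, Hoxd8 and Hoxc8 shared no exon with these, and overlap with genes of other names was not examined.

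How far the members varied over the strains was measured by dividing the 90th percentile of scaled count + 1 by the 10th. This ratio was at least 2 for 6 of the 28 Hox genes, beside 23.9% of the 16152 genes tested, so the share of the members was near the background. Among them were Hoxd10 (5.59), Hoxa6 (2.82), Hoxb9 (2.31), Hoxd3 (2.25) and Hoxa2 (2.01). The median ratio was 1.72 over the Hox genes and 1.5 over all genes. Hoxd10, Hoxa2 and Hoxa6 are low genes, for which counting error was 0.519, 0.262 and 0.289 on the log2 scale.

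A single strain, BXD48 of the RwwJ group, held the highest value of 10 of the 28 members, among them Hoxb2, Hoxb3, Hoxb6, Hoxb7, Hoxb8, Hoxb9, Hoxc10, Hoxd8 and Hoxd10, and the lowest of Hoxc9. Hoxd10 had a scaled count of 223 there and 2 to 29 in the other 24 strains. Hoxb8, which is also expressed in the spinal cord, had 850 there and 115 to 277 elsewhere. Hoxb9 had 872 there, with a median of 452 over all strains, and Hoxc10 had 399, with a median of 202. Hoxd10 and Hoxb8 in BXD48 lay far outside the range of all other strains, while Hoxa10 in the same library was 493, below the median. BXD48 was the library with the highest summed spinal cord markers, 21880 against a median of 1153. The part of those markers in its Hox values was not tested. How many of all genes were highest in BXD48 was not counted, so the 10 members are not read as a trait of the family.

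A per-strain profile was formed as the mean of log2(scaled count + 1) over groups 10 to 13 minus that over groups 1 to 5. It was lowest in BXD2, at -1.01, had a median of -0.19, and was highest in BXD48, at 1.44. Without Hoxd10 the difference ran from 0.77 in BXD89 through a median of 1.54 to 1.9 in BXD73. The extreme position of BXD48 therefore rested on Hoxd10. Without that gene BXD48 was no longer the highest strain.

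The question of which Hox genes vary together was put to all 378 pairs of members, with Pearson's r of log2(scaled count + 1) over the 25 strains. The correlations describe these libraries, whose members share depth and tissue composition. Of the pairs, 287 were positive and the median r was 0.217. In 32 pairs, or 8.47%, r was at least 0.6. Between a Hox gene and any other gene tested, 10445 of 451472 pairs, or 2.31%, reached that value. An r at or below -0.6 was found in 3 pairs, all of them with Hoxd1.

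Neighbours were members next to each other in a cluster among those with a row. Hoxd3 with Hoxd8 therefore counted, although Hoxd4 had no row. Pairs that were neighbours had a median r of 0.387 (24 pairs, 20 of them positive). Pairs of the same paralog group had a median of 0.364 (27 pairs, 26 positive). Pairs in the same cluster that were not neighbours had a median of 0.227 (65 pairs), and pairs that shared neither cluster nor group had 0.186 (262 pairs). Leaving out each strain in turn moved the median of neighbours between 0.35 and 0.408, and that of unrelated pairs between 0.151 and 0.204. For pairs of the same paralog group it moved between 0.275 and 0.412. Standard errors of the medians, from a jackknife over the strains, were 0.067 for neighbours, 0.123 for the same paralog group and 0.06 for unrelated pairs. Neighbours and paralogs thus had higher medians than unrelated pairs in these libraries. No test was made of these differences because pairs share genes.

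**Figure D2:**
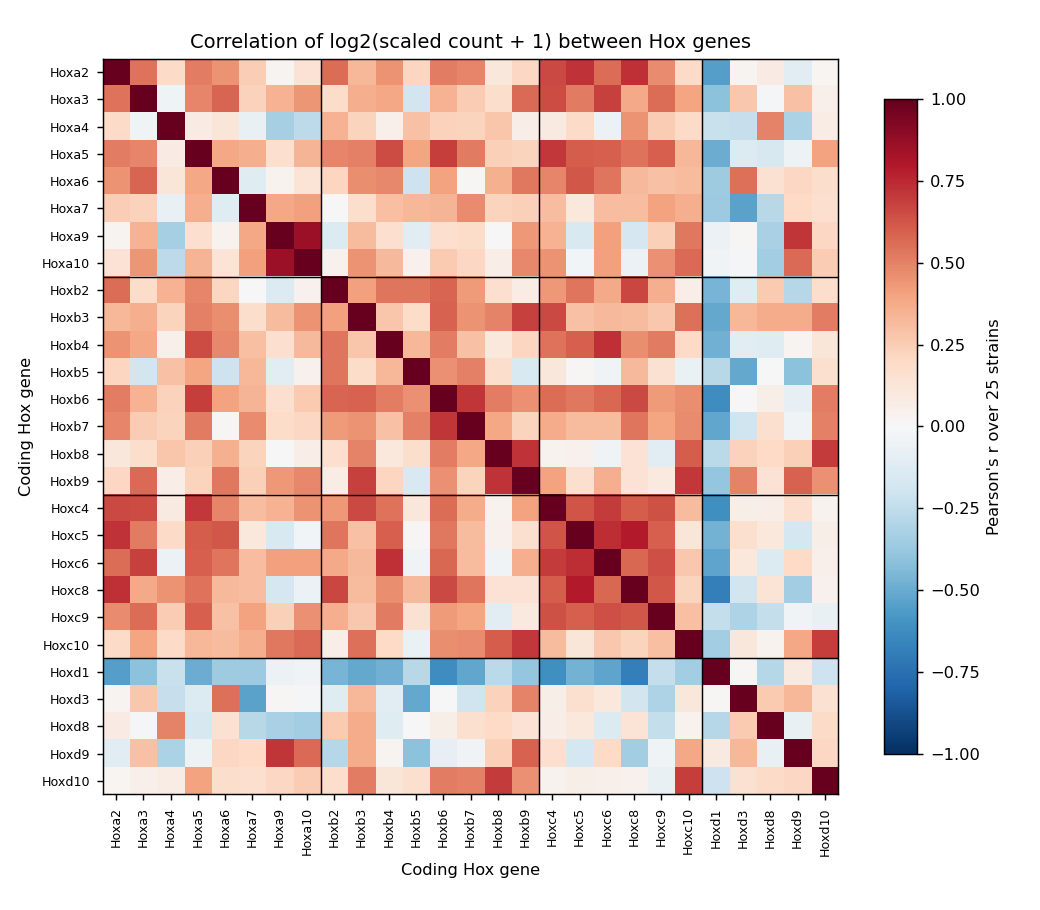
Pearson's r between 27 coding Hox genes over 25 strains, with genes in cluster order and lines between clusters. Hoxc4 to Hoxc9 form a red square, Hoxa9 and Hoxa10 a dark pair with an r of 0.853, and Hoxd1 a blue stripe.

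The members fell into 3 visible patterns, chosen after their values were seen and described without a test. Hoxc4, Hoxc5, Hoxc6, Hoxc8 and Hoxc9, the brachial and thoracic genes of the Hoxc cluster, had an r of 0.571 to 0.795 in their 10 pairs, with a median of 0.631. At least 1 of these 5 genes was in 21 of the 32 pairs at or above 0.6, of 125 pairs they take part in. Partners outside the cluster were Hoxa2 (r = 0.73 with Hoxc8), Hoxa5 (r = 0.705 with Hoxc4), Hoxb4 (r = 0.729 with Hoxc6) and Hoxb6 (r = 0.663 with Hoxc8). The second pattern held genes from groups 8 to 10: Hoxa9 with Hoxa10 (r = 0.853) and Hoxd9 (r = 0.718), and Hoxb9 with Hoxb8 (r = 0.72) and Hoxc10 (r = 0.705). Hoxa10 had an r of 0.569 with Hoxc10, 0.481 with Hoxb9 and 0.068 with Hoxb8, so these genes did not all vary together. The third was Hoxd1, which had a negative r with 24 of the 27 others and a median of -0.364. Its median r with the other genes tested was -0.002.

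Correlations among genes of groups 8 to 10 differed in how far they rested on BXD48. Without that strain the r of Hoxb8 with Hoxd10 fell from 0.701 to 0.288 and that of Hoxb8 with Hoxc10 from 0.607 to 0.329. The r of Hoxa9 with Hoxa10 was 0.853 with and without it, and that of Hoxb8 with Hoxb9 was 0.72 with it and 0.677 without.

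Genes that follow the posterior end were sought with the slope of each gene on Hoxa10, the group 10 member of highest level per length, in limma over all strains. Of the 16151 other genes only 1, or 0.00619%, passed an adjusted p of 0.05, and it was a Hox gene: Hoxa9, the neighbour of Hoxa10 in the cluster. Hoxa9 had scaled counts of 610 in BXD89, a median of 796 and 1099 in BXD16. The strains lowest for Hoxa10 (BXD77 and BXD89) were also among the lowest for Hoxa9, and BXD16 and BXD73, the highest for Hoxa9, were high for Hoxa10. The slope was 0.66 ± 0.09 (SE) log2 units of Hoxa9 per log2 unit of Hoxa10 (limma adjusted p = 0.00108). Pearson's r was 0.853 and Spearman's rho 0.85, each with a permutation p of 1e-05, the smallest that 100000 permutations can give, and r was 0.81 without the 2 strains farthest from the Hoxa10 median.

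Within the TyJ strains the r of this pair was 0.807, and within the RwwJ strains 0.931. The slope was 0.68 within TyJ (limma adjusted p = 0.247) and 0.69 within RwwJ (limma adjusted p = 0.518), so neither smaller set gave a call, at slopes close to that of all strains. With ranks of the strains in place of values the call was lost as well (limma adjusted p = 0.392). Given the spinal cord and skeletal muscle scores the r was 0.828, and given the sensory neuron and fibroblast scores it was 0.866.

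**Figure D3:**
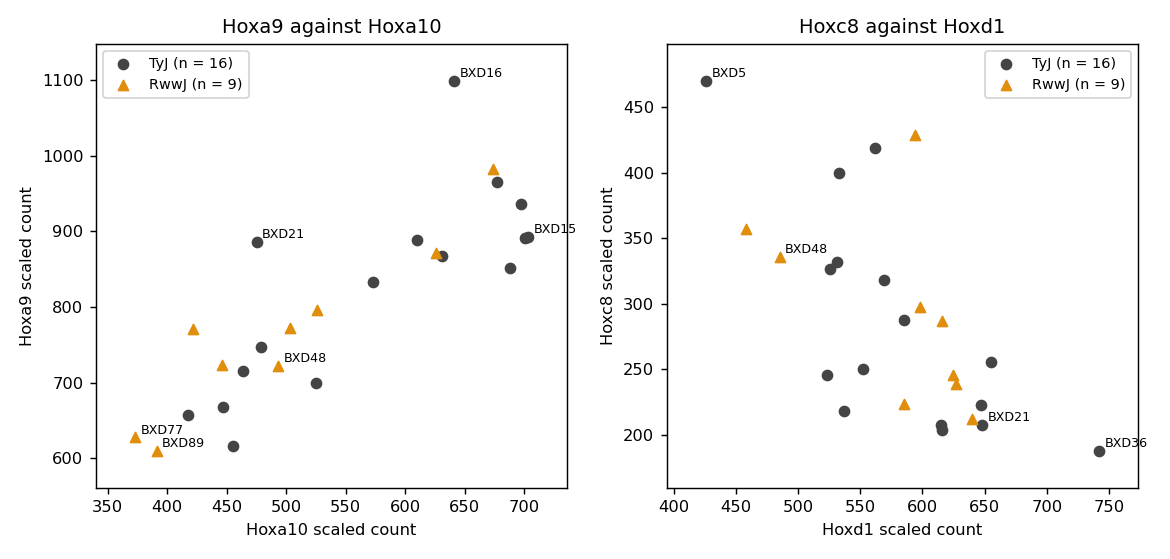
Scaled counts per strain of Hoxa9 against Hoxa10 and of Hoxc8 against Hoxd1, with TyJ strains as circles and RwwJ strains as triangles; strains at the ends of the ranges, BXD21 and BXD48 are named. Hoxa9 rises with Hoxa10 (r = 0.853), and Hoxc8 falls as Hoxd1 rises (r = -0.685).

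Other posterior members did not pass over all strains. Hoxc10, the paralog of Hoxa10 in the Hoxc cluster, had a slope of 0.82 ± 0.24 on Hoxa10 (SE, limma adjusted p = 0.17), with an r of 0.569. Without BXD48, where Hoxc10 was highest, its slope was 0.89 and passed (limma adjusted p = 0.0474). Hoxd9 had a slope of 0.43 ± 0.13 (SE, limma adjusted p = 0.191), with an r of 0.566, and Hoxb9 a slope of 0.78 ± 0.28 (SE, limma adjusted p = 0.286), with an r of 0.481. Of the 27 members, 20 had a positive r with Hoxa10. The median r with Hoxa10 was 0.251 over these members and 0.018 over the other genes tested.

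The genes outside the family most like Hoxa10 in pattern over the 25 strains all missed the threshold. Highest were Gldn, the gene of gliomedin, a protein of Schwann cell microvilli at nodes of Ranvier (r = 0.743, limma adjusted p = 0.0535), Abcg2, an efflux transporter (r = 0.72, limma adjusted p = 0.0645), and Agtr1b, an angiotensin receptor (r = 0.708, limma adjusted p = 0.0762). Lowest were Pou4f2, a transcription factor of sensory neurons (r = -0.757, limma adjusted p = 0.0535), and Cdh10, a cadherin (r = -0.745, limma adjusted p = 0.0645).

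For the middle of the clusters the slope was taken on Hoxd8. It called 0 of 16151 genes (0%) and 0 of 27 Hox genes in limma, while 2750 genes had an unadjusted p under 0.05. The Hox gene closest to it was Hoxa4, with an r of 0.494 (limma adjusted p = 0.223). Outside the family the closest were Atp1a4, a sodium pump subunit with scaled counts of 3 to 27 (r = 0.788, limma adjusted p = 0.0579), and Postn, the gene of the matrix protein periostin, with scaled counts of 393 to 1479 (r = -0.741, limma adjusted p = 0.0579).

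For the anterior end the slope was taken on Hoxd1. Of 16151 genes, 88 (0.545%) passed, 24 of them rising and 64 (0.396%) falling as Hoxd1 rose. A single Hox gene of 27 passed, Hoxc8, a gene known for brachial and thoracic motor neuron identity. Hoxc8 had scaled counts of 188 in BXD36, a median of 256 and 470 in BXD5, and Hoxd1 was highest in BXD36 and lowest in BXD5. The slope was -1.47 ± 0.32 (SE, limma adjusted p = 0.0366). Pearson's r was -0.685 (permutation p = 0.00015), Spearman's rho -0.669 (permutation p = 0.00039), and r was -0.574 without the 2 strains farthest from the Hoxd1 median.

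The call of Hoxc8 was lost when BXD2, BXD5, BXD21, BXD36, BXD73 or BXD87 was left out, with limma adjusted p of 0.0519, 0.18, 0.0649, 0.123, 0.057 and 0.055. The slope without each of these strains was between -1.37 and -1.46. The call was also lost given the sensory neuron and fibroblast scores, where the slope was -0.78 (limma adjusted p = 0.186). Hoxb6 had a slope of -1.07 ± 0.28 (SE, limma adjusted p = 0.0571) and Hoxc4 one of -1.03 ± 0.28 (SE, limma adjusted p = 0.063), just above the threshold. Hoxa9 and Hoxa10 had an r of -0.056 and -0.034 with Hoxd1.

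The 5 genes outside the family with the highest r with Hoxd1 were Ap2m1, a subunit of the clathrin adaptor (r = 0.755, limma adjusted p = 0.0413), Sars, a seryl-tRNA synthetase (r = 0.754, limma adjusted p = 0.0366), Ifngr2, an interferon gamma receptor subunit (r = 0.751, limma adjusted p = 0.0355), Fig4, a phosphoinositide phosphatase (r = 0.738, limma adjusted p = 0.0366), and Mecr, an enzyme of mitochondrial fatty acid synthesis (r = 0.736, limma adjusted p = 0.0355). The lowest were Cnot6l, a deadenylase (r = -0.802, limma adjusted p = 0.0303), Abcb1b, an efflux transporter (r = -0.779, limma adjusted p = 0.0355), and Flrt2, a cell adhesion and axon guidance protein (r = -0.776, limma adjusted p = 0.0278). All of these calls depend on single strains: without BXD5, BXD21 or BXD36 no gene passed.

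Known partners and regulators were compared with the 3 anchor genes through gene lists. Of the 9 TALE cofactors, 16 chromatin regulators, 13 measured genes of retinoic acid signalling and axial patterning, 9 non-coding transcripts and neighbours of the clusters and 7 limb-level and proprioceptor genes, 0 passed in limma for Hoxa10, Hoxd8 or Hoxd1. These lists were drawn up with earlier results on these data known. The median r with Hoxa10 was 0.004 over the TALE cofactors and 0.027 over the chromatin regulators, beside 0.018 over all genes. With Hoxd1 it was -0.335 over the retinoic acid list (12 of the 13 negative) and -0.307 over the chromatin regulators (12 of the 16 negative), beside -0.002 over all genes. Cell type markers had differing medians with Hoxd1. The median was -0.248 over the fibroblast markers (0 of 6 positive), -0.395 over endothelium (0 of 3) and -0.389 over adipose (0 of 4). It was 0.315 over the sensory neuron markers (6 of 7). The remaining marker lists measured had medians from -0.191 (skeletal muscle) to 0.012 (satellite glia). Examples from the retinoic acid list and the chromatin regulators are the receptor gene Rxra (r = -0.629 with Hoxd1) and the Polycomb genes Phc1 (r = -0.628) and Bmi1 (r = -0.562), none of which passed. Haglr, the antisense transcript beside Hoxd1, had an r of 0.529 with it. Runx3, a factor of proprioceptors, had the highest r with Hoxa10 in its list, 0.5, and 4 of the 7 genes there were positive. Pvalb, Etv1 and Ntrk3 of the same list had an r of -0.06, -0.01 and -0.109 with Hoxa10.

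Whether Hox genes varied with the makeup of the ganglia was described with scores, each the mean of log2(scaled count + 1) over a list of cell type markers, and with the slope of every gene on a score in limma. These fits were added after the data were seen. In bulk tissue, fewer cells of a type and less RNA per cell cannot be told apart. Relations between the 28 members and 9 scores came to 252.

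Genes of the middle Hoxc cluster rose with markers of connective tissue and vessels. With the fibroblast score (Col1a1, Col1a2, Dcn, Lum, Pdgfra and Fn1), 7 of 28 Hox genes passed, beside 12.7% of all genes in either direction. All 7 were positive: Hoxa2, Hoxa3, Hoxa5, Hoxc5, Hoxc6, Hoxc8 and Hoxc9. The summed fibroblast markers ran from 35107 in BXD16 through a median of 52525 to 107729 in BXD55, which was also the strain with the highest Hoxc5 (138) and Hoxc6 (378). Hoxc8 had a slope of 0.7 ± 0.11 on this score (SE, limma adjusted p = 8.27e-05). Its r was 0.791 (permutation p = 1e-05) and rho 0.758 (permutation p = 6e-05), with an r of 0.726 without the 2 strains farthest from the median of the score. Leaving out single strains gave 4 to 8 called members, the fewest without BXD55.

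With the endothelium score (Pecam1, Cdh5 and Cldn5, so only 3 genes), 9 of 28 passed, beside 11.1% of all genes in either direction. All 9 were positive: Hoxa2, Hoxa3, Hoxa5, Hoxb7, Hoxc4, Hoxc5, Hoxc6, Hoxc8 and Hoxc9. Hoxc9, which sets thoracic identity in the spinal cord, was the strongest, with a slope of 0.67 ± 0.1 (SE, limma adjusted p = 0.00014). Its scaled counts ran from 156 in BXD48 through a median of 177 to 313 in BXD15, and BXD15 was also the strain with the highest endothelial markers. The r was 0.833 and rho 0.828 (permutation p = 1e-05 for each), with an r of 0.752 without the 2 strains farthest from the median.

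With the sensory neuron score, 9 of 28 Hox genes passed, beside 11.9% of all genes in either direction. All 9 fell as the score rose: Hoxa2, Hoxa5, Hoxb2, Hoxb6, Hoxc4, Hoxc5, Hoxc6, Hoxc8 and Hoxc9. Hoxc8 had a slope of -2.09 ± 0.33 (SE, limma adjusted p = 0.000416) and an r of -0.795 (permutation p = 1e-05), with a rho of -0.726 (permutation p = 8e-05) and an r of -0.733 without the 2 farthest strains. Hoxb2 and Hoxb6 did not pass with the fibroblast or endothelium score, and Hoxa3 and Hoxb7 did not pass with the sensory neuron score (limma adjusted p = 0.0722 and 0.0516). Over the whole family, 22 of 28 members had a negative r with this score, and the share over all genes was not counted. Leaving out BXD15 or BXD55 gave 6 called members. For Hoxd1 the r was -0.419 with the fibroblast score, -0.492 with the endothelium score and 0.46 with the sensory neuron score, and none of the 3 slopes passed (limma adjusted p = 0.165, 0.088 and 0.112).

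The 3 scores were themselves related, so these counts are not separate results. The fibroblast score had an r of -0.72 with the sensory neuron score (permutation p = 7e-05, rho = -0.699 with permutation p = 0.00019, r = -0.567 without the 2 farthest strains). With the endothelium score it had an r of 0.693 (permutation p = 0.00014, rho = 0.725 with permutation p = 9e-05, r = 0.623 without the 2 farthest strains). In all 6 pairs of scores were computed, and these p-values are not adjusted. With the sensory neuron and fibroblast scores held constant, the 10 pairs among Hoxc4 to Hoxc9 had a median r of 0.304, from -0.126 for Hoxc8 with Hoxc9 to 0.538. With these scores held constant 15 pairs of the family were at or above 0.6, against 32 before. Of these, 10 were in both sets, among them Hoxa9 with Hoxa10, Hoxa9 with Hoxd9, and Hoxb8 with Hoxb9.

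**Figure D4:**
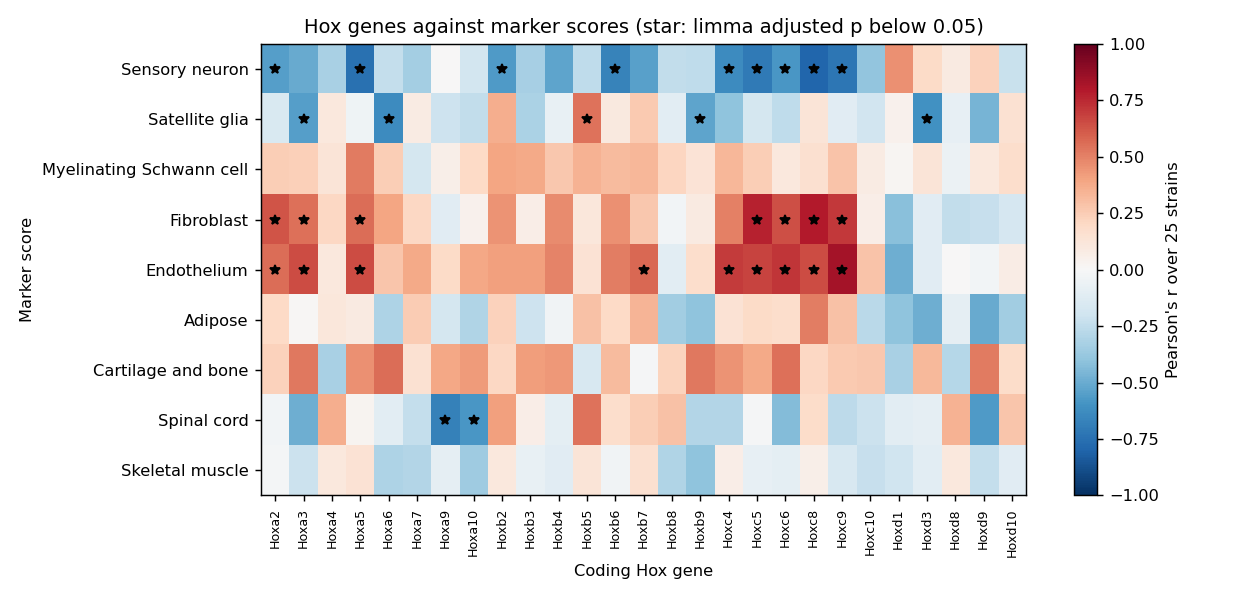
Pearson's r over 25 strains between 27 coding Hox genes and each marker score, with a star where the limma slope had an adjusted p under 0.05. The stars of Hoxc5 to Hoxc9 lie in the rows of fibroblasts, endothelium (red) and sensory neurons (blue), with Hoxc4 in the last 2 of these, and those of Hoxa9 and Hoxa10 in the row of the spinal cord (blue).

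Of the posterior genes, Hoxa9 and Hoxa10 passed with none of these 3 scores and fell with the spinal cord score (10 genes, such as Mobp, Gfap and Olig2). They were the 2 of 28 members called, both negative, beside 6.43% of all genes in either direction, so the share of the members was near the background. Hoxa9 had a slope of -0.07 ± 0.016 (SE, limma adjusted p = 0.0075), and an r of -0.674 (permutation p = 0.00032), with a rho of -0.633 (permutation p = 0.00086) and an r of -0.706 without the 2 farthest strains. Hoxa10 had a slope of -0.079 ± 0.022 (SE, limma adjusted p = 0.0313). BXD16, with the lowest summed spinal cord markers, had the highest Hoxa9. Without BXD11, BXD14, BXD28, BXD73, BXD77 or BXD89 Hoxa10 was not called (limma adjusted p of 0.0503 to 0.0677, slopes of -0.071 to -0.075), while Hoxa9 was called whichever strain was left out. Leaving out BXD48 gave 5 called members.

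The satellite glia score called 5 of 28 members, beside 20.6% of all genes in either direction, so the share of the members was near the background. Of the 5, Hoxb5 rose, and Hoxa3, Hoxa6, Hoxb9 and Hoxd3 fell. The count of 5 members rested on few libraries, since without BXD21, BXD36 and BXD40 it was 1. The scores of skeletal muscle, myelinating Schwann cells, adipose tissue, and cartilage and bone called 0 members in limma. In these fits 1, 2, 5 and 11 members had an unadjusted p under 0.05. With the skeletal muscle score 101 of 16152 genes were called and 1401 had an unadjusted p under 0.05. The unadjusted counts are not read as a trait of the family.

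The last comparison was between the RwwJ and the TyJ strains, the only labelled grouping. No Hox gene passed: 0 of 28 members and 0 of 16152 genes (0%) passed in limma, while 1 member and 2440 genes had an unadjusted p under 0.05. Of the members, 15 were higher in RwwJ, with a median log2 difference of 0.01, beside -0.01 over all genes. The member with the smallest p was Hoxb8, with scaled counts from 133 through a median of 201 to 850 in RwwJ and from 115 through 175 to 263 in TyJ. The groups overlapped, with BXD48 (850) and BXD44 (277) of RwwJ above the highest TyJ strain (263). The difference was 0.46 ± 0.21 (SE, limma adjusted p = 0.321), and without BXD48 it was 0.22 (limma adjusted p = 0.498).

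Hoxa10 had scaled counts of 373 to 674 in RwwJ, with a median of 493, and 417 to 703 in TyJ, with a median of 591.5. Its difference was -0.22 ± 0.11 (SE, limma adjusted p = 0.353). Hoxb5 had 209 to 437 in RwwJ, with a median of 278, and 249 to 475 in TyJ, with a median of 375, a difference of -0.26 ± 0.14 (SE, limma adjusted p = 0.355). The ranges overlapped for all 3 of these genes. The difference between TyJ and RwwJ strains in the slopes of the 27 other members on each anchor was tested in limma: 0 passed, and the smallest adjusted p was 0.221, for Hoxa2 on Hoxd8, with 4 members at an unadjusted p under 0.05 for Hoxd8, 2 for Hoxd1 and 0 for Hoxa10.

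**Figure D5:**
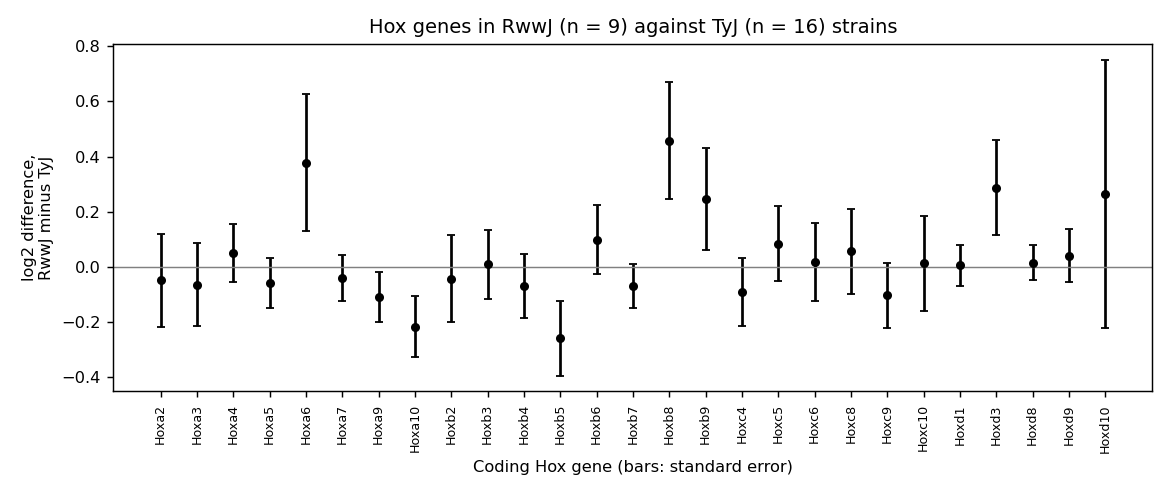
The log2 difference in scaled count + 1 between the 9 RwwJ and the 16 TyJ strains for 27 coding Hox genes, with bars of 1 standard error. Hoxb8 stands highest at 0.46, Hoxb5 lowest at -0.26, and none passed the adjusted threshold.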

How the data were processed

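Dorsal root ganglia of 25 BXD strains were profiled by RNA sequencing after Trizol extraction and a TruSeq library kit, per the labels. CASAVA 1.8.0, TopHat2 2.0.9 and HTSeq, with the builds NCBIM37 and mm9, are named in the submitters' processing notes. The authors deposited a normalized score per gene, whole numbers here called scaled counts; their upper quartile was 1478 in every library. The sources used here do not name the scaling tool. Because the values are not raw counts, no count model was used. Reads assigned to the genes of the table were estimated per library from the step between low values, which was unclear in BXD36.

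Symbols matched 15697 of 16220 identifiers, and 523 had none. Exon lengths came from GENCODE for GRCm38, a later build. Slopes and group differences were fitted to log2(scaled count + 1) with limma 3.58.1 in R 4.3.3, a trended prior and two-sided Benjamini-Hochberg adjustment over 16152 genes. A mean scaled count of 10 was required, and 68 genes were below it. Such log2 changes understate those of low genes. Permutation p-values were two-sided, from 100000 permutations, and not adjusted. The scripts were tested on simulated data. Anchors were the members of highest mean level per length in groups 10 to 13, 6 to 9 and 1 to 5. The genes named outside the family were those of highest and lowest r with an anchor, and for the lists those with the largest r or of a known role, chosen with their values seen. The members and lists were chosen with earlier results of these data known.
Values of some single genes are not reported here, and counts over the family include every member.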

Additional observations from a re-analysis of the deposited data

Results flagged for a closer look

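Within the 9 RwwJ strains, 5 of the 28 Hox genes had a highest strain whose gap to the next, divided by the range of the group, was above the 95% critical value of Dixon's test. Chance gives such a gap in about 1 of 20 groups, and the genes are not independent. The same count was not made over all genes. In BXD48 the ratio was 0.936 for Hoxd10 (223, next 17), 0.799 for Hoxb8 (850, next 277) and 0.635 for Hoxc10 (399, next 223). In BXD55 it was 0.617 for Hoxc9 (297, next 210) and 0.553 for Hoxc6 (378, next 279). BXD48 had the highest spinal cord markers and BXD55 the highest fibroblast markers of the 25 libraries, and their part in these values was not tested.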

How the results depend on the processing

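The ganglia of each strain were 1 library, with an estimated 20020000 to 40150000 reads assigned to the genes of the table. Spinal levels, animals and batches cannot be told apart from strain. Low members such as Hoxd10 are limited by counting error. No paired analysis was possible because each strain has its own number and 1 library.

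For Hoxa10, 1 Hox member was called, and 0 within TyJ, within RwwJ, with ranks or with Hoxc10 as the anchor, and 1 to 2 without single strains. All genes called numbered 1. The count was 3 with a mean of at least 50, with TyJ or RwwJ as a term, without the 2 farthest strains, and without BXD21, BXD36 and BXD40. It was 9 after median-of-ratios rescaling, 2 and 10 given the spinal cord and muscle or the neuron and fibroblast scores, 0 within TyJ, within RwwJ, with ranks or with Hoxc10, and 1 to 63 without single strains.

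For Hoxd8, 0 members were called under every alternative run. The 0 genes became 2 within TyJ, 17 given the neuron and fibroblast scores and 0 to 3 without single strains.

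For Hoxd1, 1 member was called. The count was 2 with a mean of at least 50 or median-of-ratios rescaling, 4 given the spinal cord and muscle scores and 3 within TyJ. It was 0 within RwwJ, with ranks, without the 2 farthest strains, without BXD21, BXD36 and BXD40, given the neuron and fibroblast scores or with Hoxb5 as the anchor, and 0 to 3 without single strains. The 88 genes became 221 with a mean of at least 50, 204 after rescaling, 995 given the spinal cord and muscle scores, 185 with TyJ or RwwJ as a term, 426 within TyJ, 1 with Hoxb5 and 0 to 513 without single strains. They became 0 within RwwJ, with ranks, without the 2 farthest strains, without BXD21, BXD36 and BXD40, and given the neuron and fibroblast scores.

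Between RwwJ and TyJ 0 members were called under every alternative run, and the 0 genes became 1 given the neuron and fibroblast scores and 0 to 3 without single strains.

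The median r of all pairs, 0.217, became 0.129 given the neuron and fibroblast scores, 0.299 within TyJ and 0.147 within RwwJ. That of neighbours, 0.387, became 0.265 given those scores and 0.46 within RwwJ. That of unrelated pairs, 0.186, became 0.106 given those scores, 0.276 within TyJ and 0.09 within RwwJ.

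Members called with the spinal cord score were 2, or 4 with TyJ or RwwJ as a term, and 1 to 5 without single strains. With the fibroblast score they were 7, or 4 to 8 without single strains, with the sensory neuron score 9, or 6 to 11, with the endothelium score 9, or 6 to 10, and with the satellite glia score 5, or 0 to 6, and 1 without BXD21, BXD36 and BXD40. Without these 3 strains the genes called rose from 2053 to 4470 for fibroblasts, from 1918 to 4030 for sensory neurons and from 1798 to 4520 for endothelium, and fell from 3329 to 305 for satellite glia. Without single strains they ranged over 1356 to 2292, 1122 to 2514, 1219 to 1989 and 1485 to 4200 in that order, and over 787 to 1216 for the spinal cord score. The cause of these changes was not tested. The alternatives with the 3 strains left out, with the neuron and fibroblast scores, and all fits on scores were chosen after seeing the data.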
